A study of Mus musculus with 24 samples.

Results

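This report describes the tissue inhibitors of metalloproteinases (TIMPs) and the matrix metalloproteinases (MMPs) Mmp2, Mmp3, Mmp9 and Mmp14 in mouse sciatic nerve. The genes were taken by symbol from these families, with no threshold on their values: Timp1, Timp2, Timp3, Timp4, Mmp2, Mmp3, Mmp9 and Mmp14. They were chosen with earlier results of these data known, and other MMPs are read from a list below. The arrays carried 20 probe sets for these 8 genes, of 22690 probe sets in all, and after the brightest probe set was taken for each gene the 8 stood among 12393 genes. Timp1 and Mmp3 had 1 probe set each, Timp2 had 6, Timp3 had 4, and Timp4, Mmp2, Mmp9 and Mmp14 had 2 each. All values below are log2 expression. Percentiles place a probe set's mean signal among those of all genes, and signals of different probe sets are not comparable as levels.

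Nerves came from mice of 4 genotypes, each at postnatal day 5 (P5), P28 and 4 months, and each of the 12 groups had 2 arrays, which the labels call biological replicates (24 arrays). S63del/Chop null mice carry both changes, S63del mice carry a mutant myelin protein zero that lacks a serine and models Charcot-Marie-Tooth neuropathy of the 1B type, Chop null mice lack the stress transcription factor CHOP (gene Ddit3), and wild-type (WT) mice carry neither. P5 is when myelination has just begun, P28 is near its peak, and 4 months is, per the series' design, an age at which the benefit of losing CHOP could be detected. The promoter behind the mutant protein, the sex of the mice and the number of animals in an array are not stated in the labels. The perineurial sheath had been stripped from the nerve, and the RNA is that of all remaining cells, so that fewer cells of a type and less RNA per cell cannot be told apart.

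The labels and the arrays were checked before use. Ddit3 lay between 6.60 and 7.37 in the 12 arrays of the Chop null genotypes and between 7.62 and 9.59 in the 12 others. Duplicate arrays correlated across genes at 0.991 or more except in Chop null at P28 (0.970), where replicate 2 stands apart, as does WT replicate 1 at 4 months by its RNA control. The interquartile range of an array was 3.77 to 3.83 at P5, 2.90 to 3.52 at P28 and 3.86 to 3.90 at 4 months, and the part of this spread in differences between ages was not tested. At P28 the range was 3.45 and 3.52 in S63del/Chop null and 3.48 and 3.38 in S63del. In Chop null it was 3.38 and 2.90, and in WT 3.18 and 3.35. Both S63del genotypes thus had the wider spread at P28, narrowly at the closest (3.3833 against 3.3809). The part of this in P28 genotype differences was not tested beyond the runs with quantile normalization. The peripheral myelin genes Mbp and Pmp22 lay at 13.6 or more in every array, among the brightest on the array.

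MMPs are zinc enzymes that cut extracellular matrix, basement membrane, growth factors and cell surface proteins, and TIMPs bind their active site and stop them. In injured nerve Timp1 and Mmp9 are known to be induced in Schwann cells and in the macrophages that enter, while Mmp2 is activated at the cell surface by a complex of Mmp14 and Timp2. Timp3 is the TIMP that binds to matrix and also inhibits sheddases of the ADAM family, Mmp3 (stromelysin) degrades matrix and activates other MMPs, and Timp4 is known mainly from heart, muscle and fat.

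Timp1 was higher in the S63del genotypes at P5 and P28, whether Chop was present or not. At P5 its level was 9.42 and 9.07 in S63del nerves, against 7.92 and 7.58 in WT nerves. It was 9.41 and 8.99 in S63del/Chop null nerves at that age, against 7.76 and 7.55 in Chop null nerves. All 4 arrays with the mutant protein lay above the 4 without it. At P5 this held for 2 of the 8 genes, while 11% of all genes lay all above and 11.6% all below. At P28 it was 9.34 and 9.20 in S63del nerves, against 7.08 and 7.16 in WT nerves. The S63del/Chop null nerves had 9.32 and 8.88 at P28, against 7.15 and 7.61 in the Chop null nerves. Again no array of a mutant genotype came below an array without it.

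Fitted with limma, Timp1 rose in S63del against WT by 1.50 ± 0.32 at P5 (SE; adjusted p = 0.0155 over all genes) and by 2.14 ± 0.32 at P28 (adjusted p = 0.00113), which is 2.82-fold and 4.42-fold. In S63del/Chop null against Chop null it rose by 1.54 ± 0.32 at P5 (limma adjusted p = 0.0162) and by 1.72 ± 0.32 at P28 (adjusted p = 0.00353). The P5 calls were lost when any 1 of their 4 arrays was left out, with 1.34 to 1.75 and adjusted p = 0.0549 to 0.221 for S63del/Chop null against Chop null, and 1.32 to 1.67 and adjusted p = 0.0611 to 0.189 for S63del against WT. At P28 the call of S63del against WT held in every alternative run, and that of S63del/Chop null against Chop null in all but the one with array weights (adjusted p = 0.368 at the same 1.72). Averaged over the 3 ages, Timp1 rose by 1.48 ± 0.19 in S63del against WT (limma adjusted p = 0.000155).

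**Figure D1:**
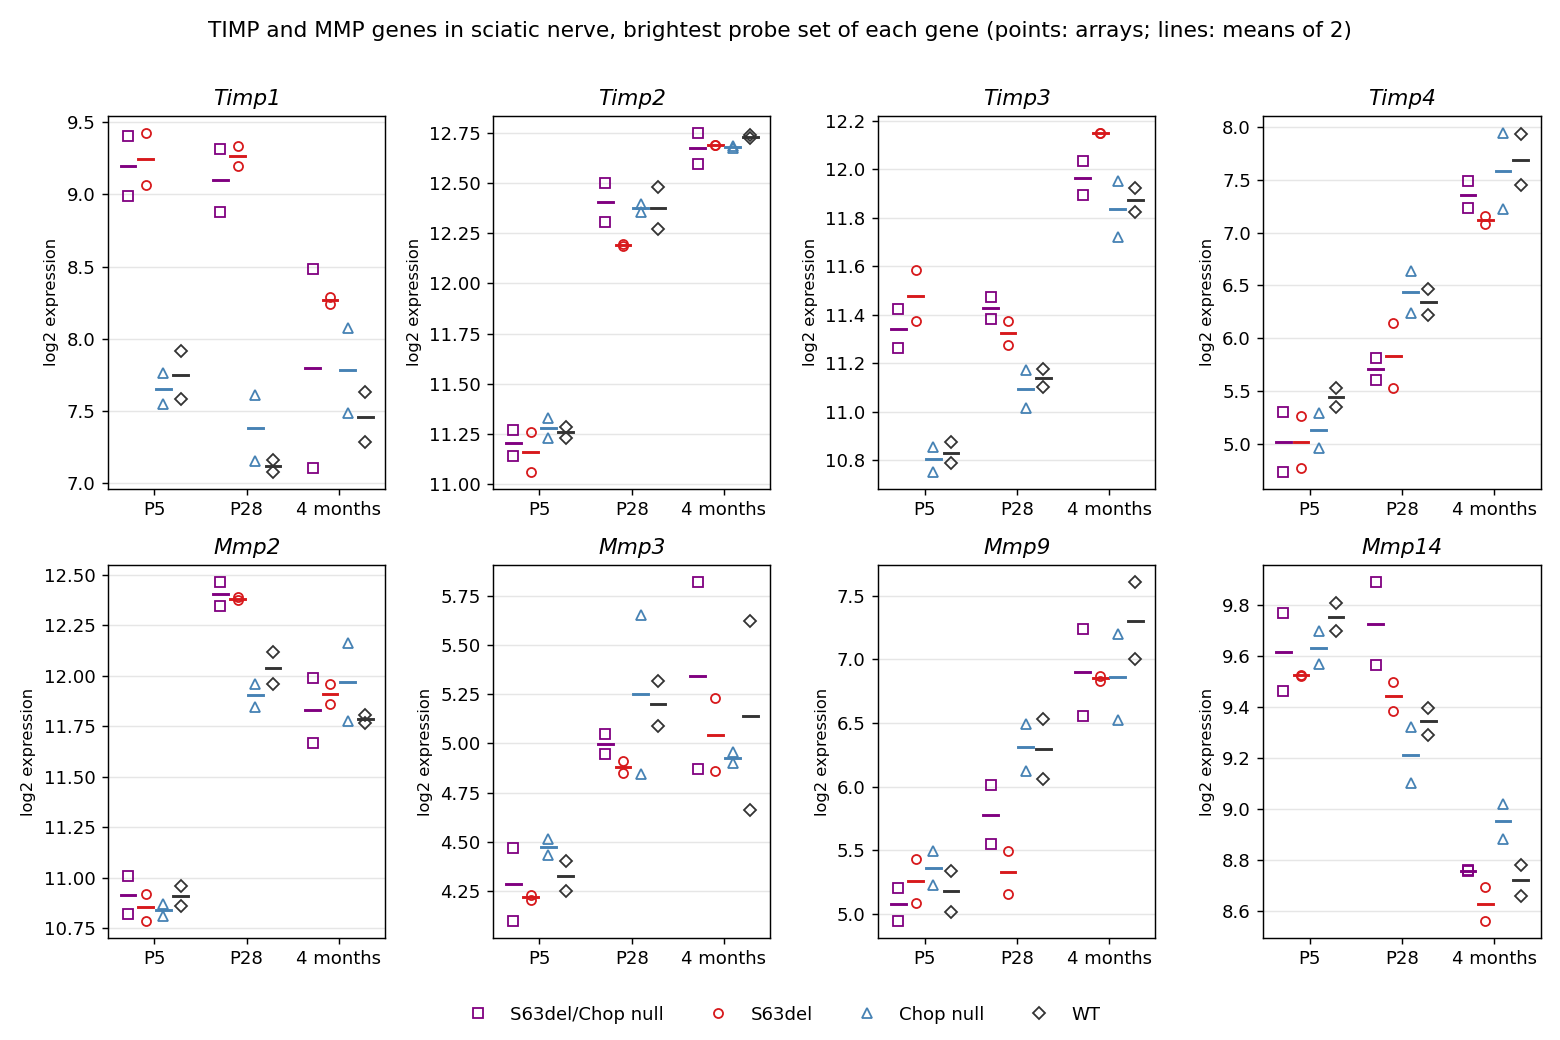
Log2 expression of each of the 8 genes (brightest probe set) by age, with 1 point per array, 1 symbol per genotype and a short line at the mean of 2 arrays; each panel has its own vertical scale. Timp1 in both S63del genotypes lies above Chop null and WT at P5 and P28, and Timp3 does so by a smaller step, while the means of Timp2 and Timp4 lie higher at each later age in every genotype.

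The promoter of Timp1 is shown because this gene had the largest genotype difference of the 8, and that of Timp3 because it moved in the same direction. Both come from the RefSeq promoter table (mouse build GRCm38.p6), which holds a window of 300 bases around the start of 6 of the 8 genes. The upstream stretches span chrX:20869916-20870165 for Timp1 and chr10:86300162-86300411 for Timp3, both on the plus strand and ending at the base before the start. The third line is a site in the first transcribed bases of Timp1, chrX:20870182-20870208 on the plus strand. Capitals mark the ETS core AGGAAG in the upstream stretches and the AP-1-like TGAGTAA in the site.
Timp1 upstream: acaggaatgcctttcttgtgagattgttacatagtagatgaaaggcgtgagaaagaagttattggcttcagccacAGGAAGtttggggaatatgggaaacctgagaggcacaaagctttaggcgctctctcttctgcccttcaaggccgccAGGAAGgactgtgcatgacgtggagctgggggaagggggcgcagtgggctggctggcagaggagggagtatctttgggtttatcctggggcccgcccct
Timp3 upstream: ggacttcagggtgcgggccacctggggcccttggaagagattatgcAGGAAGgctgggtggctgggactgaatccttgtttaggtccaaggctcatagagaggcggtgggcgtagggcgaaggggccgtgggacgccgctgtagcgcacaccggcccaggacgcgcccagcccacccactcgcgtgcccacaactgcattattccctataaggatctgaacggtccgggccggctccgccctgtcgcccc
Timp1 site: ggtgggtggaTGAGTAAtgcgtccagg

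Matches were counted on both strands in 32851 windows of the same length. The classic AP-1 letters TGANTCA, bound by FOS and JUN dimers, were in 7.81% of all windows and in 1 of the 6, that of Mmp3, 46 to 40 bases before the start. Its upstream stretch is chr9:7445572-7445821 on the plus strand, with the AP-1 and ETS letters in capitals.
Mmp3 upstream: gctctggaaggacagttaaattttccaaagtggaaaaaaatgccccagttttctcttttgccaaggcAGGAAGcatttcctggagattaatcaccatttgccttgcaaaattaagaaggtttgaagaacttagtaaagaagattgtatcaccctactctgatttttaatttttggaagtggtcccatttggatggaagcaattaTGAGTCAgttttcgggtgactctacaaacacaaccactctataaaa
The variant TGAGTAA was in 2.68% of all windows and only in that of Timp1 among the 6. The ETS core AGGAAG was in 35.4% of windows and in 5 of the 6, with 3 copies in Timp1 and none in Timp2. The STAT letters TTCNNNGAA, in 8.30% of windows, and the C/EBP-ATF letters TGATGCAAT, in 0.192%, were in 0 of the 6. A match describes letters in these windows only.

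Timp3 was the only other of the 8 genes that passed at P5, and by a smaller step. Its brightest probe set read 11.58 and 11.37 in S63del nerves at P5, against 10.79 and 10.87 in WT nerves. In S63del/Chop null nerves it read 11.42 and 11.26, against 10.86 and 10.75 in Chop null nerves. On this probe set no array with the mutant protein overlapped those without it, at P5 or at P28. At P28 its values were 11.38 and 11.27 in S63del, against 11.10 and 11.18 in WT. They were 11.38 and 11.47 in S63del/Chop null, against 11.02 and 11.17 in Chop null. The dimmest Timp3 probe set overlapped at P28 between S63del and WT (0.11 higher) and between S63del/Chop null and Chop null (0.46 higher). The remaining Timp3 probe sets did not overlap in these comparisons at P28.

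Timp3 rose by 0.65 ± 0.11 in S63del against WT at P5 (limma adjusted p = 0.00373), which is 1.57-fold, and by 0.54 ± 0.11 in S63del/Chop null against Chop null (adjusted p = 0.019). At P28 it was 0.19 ± 0.11 higher in S63del than in WT (limma adjusted p = 0.371) and 0.33 ± 0.11 higher in S63del/Chop null than in Chop null (adjusted p = 0.0529). The second passed with genes under the 40th percentile left out (adjusted p = 0.0396) and in the robust fit with an intensity trend (adjusted p = 0.0315). Averaged over ages the S63del difference was 0.37 ± 0.07 (limma adjusted p = 0.00247). All 4 probe sets of Timp3 were higher in S63del than in WT at P5, by 0.65 to 0.85, and 2 of them passed. Leaving out WT replicate 1 or S63del replicate 1 ended the P5 call of S63del against WT (0.60 with adjusted p = 0.06, and 0.54 with adjusted p = 0.0888). For S63del/Chop null against Chop null the P5 call was lost without any 1 of its 4 arrays (0.46 to 0.62, adjusted p = 0.0581 to 0.272) and with the mean of all probe sets (0.56, adjusted p = 0.178).

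Counted over the 8 genes at P5, 2 rose and 0 fell in S63del against WT, where 2.4% of all genes were called. The same 2 genes, Timp1 and Timp3, rose in S63del/Chop null against Chop null, where 1.78% were called, and in S63del/Chop null against WT, where 2.07% were called. The last comparison shares its WT arrays with the first, and its values were 1.45 ± 0.32 for Timp1 (limma adjusted p = 0.0227) and 0.51 ± 0.11 for Timp3 (adjusted p = 0.0251), with neither call kept without any 1 of its 4 arrays. The median of the 8 differences was -0.08 in S63del against WT at P5, beside -0.02 over all genes. The other 6 genes lay between -0.43 (Timp4) and 0.08 (Mmp9) in S63del against WT and between -0.29 (Mmp9) and 0.08 (Mmp2) in S63del/Chop null against Chop null. Averaged over ages, 2 of the 8 rose in S63del against WT, with 6.89% of all genes called.

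**Figure D2:**
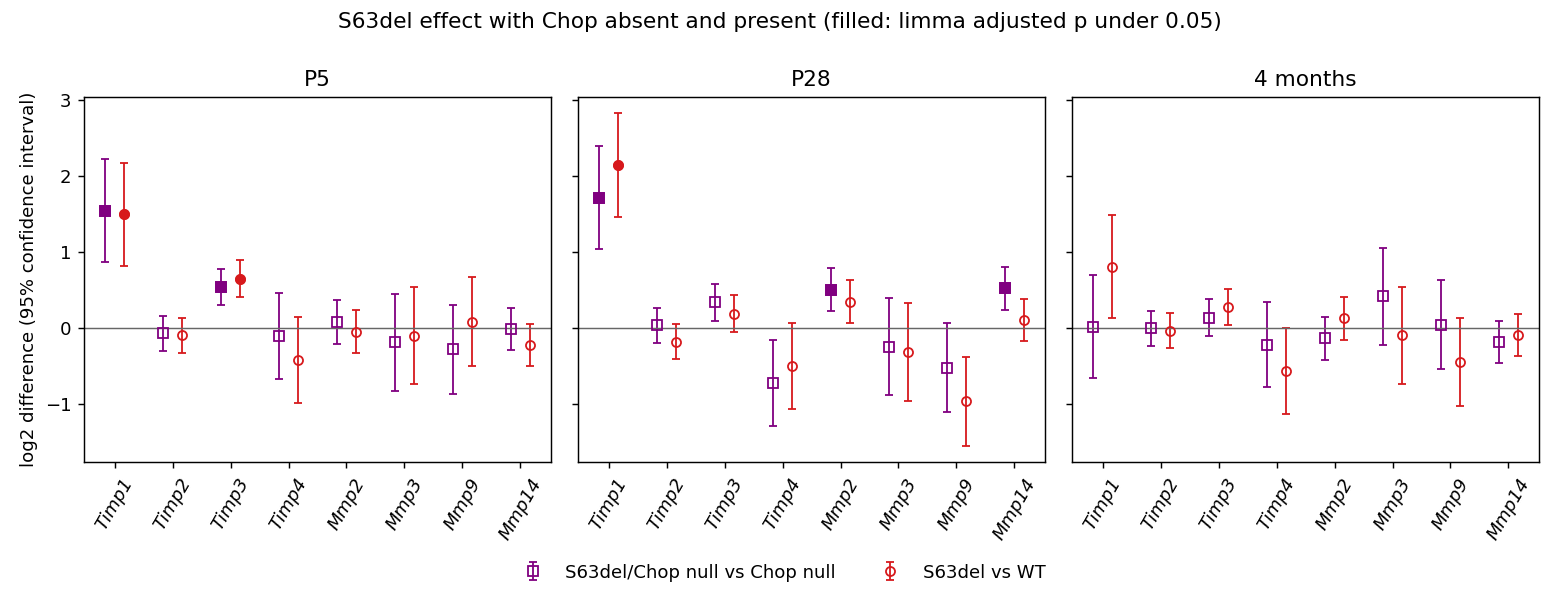
Log2 difference of each gene with its 95% confidence interval, for S63del/Chop null against Chop null (squares) and S63del against WT (circles) at each age; filled symbols passed an adjusted p of 0.05 in limma. Timp1 passed at P5 and P28 in both comparisons, Timp3 at P5 in both, Mmp2 and Mmp14 at P28 in S63del/Chop null against Chop null, and no gene at 4 months.

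Timp2, a partner of Mmp14 in Mmp2 activation, passed in no genotype comparison. Its brightest probe set read 12.20 and 12.19 in S63del nerves at P28, against 12.27 and 12.48 in WT nerves, a difference of -0.19 ± 0.11 (limma adjusted p = 0.344). In S63del/Chop null nerves it read 12.31 and 12.50, against 12.40 and 12.36 in Chop null nerves, which overlap. At P5 it lay between 11.06 and 11.33 in all 8 arrays. The interval of S63del minus WT averaged over ages was -0.24 to 0.02.

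Timp4, a dim gene (35th percentile of gene means), pointed lower in the S63del genotypes without passing. At P28 it read 5.53 and 6.14 in S63del nerves, against 6.46 and 6.22 in WT nerves. The S63del/Chop null nerves had 5.81 and 5.60, against 6.24 and 6.63 in Chop null nerves, so that all 4 mutant arrays lay below the 4 others. The other Timp4 probe set overlapped between groups at P28, with differences of -0.26 in S63del against WT and -0.18 in S63del/Chop null against Chop null, and at P5 it differed by 0.0087 in S63del against WT, beside -0.43 for the brightest. The fitted differences at P28 were -0.51 ± 0.27 in S63del against WT (limma adjusted p = 0.287) and -0.73 ± 0.27 in S63del/Chop null against Chop null (adjusted p = 0.0656, and -0.93 with adjusted p = 0.0253 without Chop null P28 replicate 1). Averaged over ages S63del minus WT was -0.50 ± 0.15 (limma adjusted p = 0.0617), and it passed without S63del P28 replicate 2 (-0.60, adjusted p = 0.0365) or WT 4-month replicate 2 (-0.58, adjusted p = 0.0468).

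Of the proteases, Mmp2 (gelatinase A) and Mmp14 (the membrane-bound MT1-MMP) were higher at P28 in nerves with the mutant protein that lacked Chop. Mmp2 read 12.34 and 12.46 in S63del/Chop null nerves, against 11.96 and 11.84 in Chop null nerves. It read 12.37 and 12.39 in S63del nerves, against 11.96 and 12.12 in WT nerves. The 4 mutant arrays thus lay above the 4 others. The difference was 0.50 ± 0.13 in S63del/Chop null against Chop null (limma adjusted p = 0.021) and 0.34 ± 0.13 in S63del against WT (adjusted p = 0.152).

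Mmp14 read 9.56 and 9.89 in S63del/Chop null nerves at P28, against 9.32 and 9.10 in Chop null nerves. In S63del nerves it read 9.50 and 9.39, against 9.29 and 9.40 in WT nerves, whose values overlap. It was 0.52 ± 0.13 higher in S63del/Chop null than in Chop null (limma adjusted p = 0.0166) and 0.10 ± 0.13 higher in S63del than in WT (adjusted p = 0.711). Both calls were lost without Chop null P28 replicate 2, the array that stands apart, with 0.44 for Mmp2 (adjusted p = 0.128) and 0.41 for Mmp14 (adjusted p = 0.134). Both were also lost without S63del/Chop null replicate 2 (0.44 with adjusted p = 0.121 for Mmp2, 0.35 with adjusted p = 0.153 for Mmp14), and Mmp2 without S63del/Chop null replicate 1 (0.56, adjusted p = 0.0523). With array weights the adjusted p = 0.501 for Mmp2 and 0.456 for Mmp14, in the fit of the 8 P28 arrays alone 0.189 and 0.216. The mean of both Mmp14 probe sets gave 0.49 (adjusted p = 0.119).

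Mmp9 (gelatinase B), induced in many inflamed tissues, was not higher in the mutants. Its brighter probe set read 5.16 and 5.50 in S63del nerves at P28, against 6.53 and 6.06 in WT nerves. It read 5.55 and 6.01 in S63del/Chop null nerves, against 6.12 and 6.49 in Chop null nerves, and all 4 mutant arrays lay below the 4 others. S63del minus WT was -0.97 ± 0.28 (limma adjusted p = 0.0538), and S63del/Chop null minus Chop null was -0.53 ± 0.28 (adjusted p = 0.177). The first passed after quantile normalization (-1.05, adjusted p = 0.0317), with an intensity trend (adjusted p = 0.0444), without both arrays that stand apart (adjusted p = 0.0233) and without WT P28 replicate 2 (-1.20, adjusted p = 0.0493). Mmp9 is dim (33rd percentile of gene means), and its second probe set differed by -0.64 in S63del against WT. That probe set overlapped between S63del/Chop null and Chop null, with a difference of -0.06. Mmp3, dimmer still (18th percentile), read 4.91 and 4.85 in S63del nerves at P28 and 5.09 and 5.31 in WT nerves, a difference of -0.32 ± 0.30 (limma adjusted p = 0.584).

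Over the 8 genes at P28, 1 rose in S63del against WT (4.62% of all genes called), 3 in S63del/Chop null against Chop null (17.8% called) and 1 in S63del/Chop null against WT (4.4% called). Timp1 was in all of these. The value of Timp1 in the last was 1.97 ± 0.32 (limma adjusted p = 0.00211), with Mmp14 at 0.38 ± 0.13 (adjusted p = 0.108, and 0.0473 without both arrays that stand apart). The S63del/Chop null arrays are shared by the second and the last, and the WT arrays by the first and the last. The median over the 8 genes was -0.04 in S63del against WT and 0.18 in S63del/Chop null against Chop null, beside 0.01 and -0.02 over all genes. At P28 the mutant arrays lay all above the others for 3 of the 8 genes and all below for 2, where 12.1% of all genes lay all above and 8.01% all below. The interquartile range of the arrays also separated these arrays at P28, as given above.

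At 4 months none of the 8 genes passed in any genotype comparison. Timp1 read 8.24 and 8.29 in S63del nerves, against 7.63 and 7.28 in WT nerves, with no overlap and a difference of 0.81 ± 0.32 (limma adjusted p = 0.945). In S63del/Chop null nerves it read 7.11 and 8.49, against 8.08 and 7.49 in Chop null nerves, a difference of 0.01 ± 0.32. The S63del/Chop null arrays were thus the lowest and the highest of the 8. Timp3 read 12.15 in both S63del arrays, against 11.83 and 11.92 in WT arrays, a difference of 0.27 ± 0.11 (limma adjusted p = 1.00). The dimmer Timp3 probe sets overlapped between these groups, with differences of 0.20 to 0.23. Timp4 read 7.09 and 7.16 in S63del nerves and 7.93 and 7.45 in WT nerves, a difference of -0.57 ± 0.27.

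limma called 0 of the 8 at 4 months in S63del against WT (0% of all genes called, 3 of the 8 with an unadjusted p under 0.05: Timp1, Timp3 and Timp4). It called 0 in S63del/Chop null against Chop null (0% of all genes called, 0 of the 8 with an unadjusted p under 0.05) and 0 in S63del/Chop null against WT (0.00807% called, 0 unadjusted). The difference between the S63del effects at 2 ages was tested itself. For Timp1 it was -1.34 ± 0.46 for 4 months minus P28 (limma adjusted p = 0.447) and 0.65 ± 0.46 for P28 minus P5 (adjusted p = 0.805), and for Timp3 it was -0.46 ± 0.16 for P28 minus P5 (adjusted p = 0.363). None of the 8 passed for P28 against P5 (0.476% of all genes called, 2 of the 8 unadjusted), for 4 months against P28 (0.169%, 1 unadjusted) or for 4 months against P5 (0.282%, 1 unadjusted). A smaller effect at 4 months was therefore not shown.

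Loss of Chop changed none of the 8 genes by the test, in S63del nerves or in nerves without the mutation. Timp1 in S63del/Chop null minus S63del was -0.05 ± 0.32 at P5, -0.17 ± 0.32 at P28 and -0.47 ± 0.32 at 4 months. Averaged over ages this was -0.23 ± 0.19, with a 95% confidence interval of -0.62 to 0.16 and a limma adjusted p = 1.00. Mmp14 was 0.29 ± 0.13 higher in S63del/Chop null than in S63del at P28 (limma unadjusted p = 0.0447, adjusted p = 1.00).

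In counts, limma called 0 of the 8 in S63del/Chop null against S63del at P5 (0.0161% of all genes called, 0 of the 8 with an unadjusted p under 0.05), at P28 (0.00807%, 1 unadjusted) and at 4 months (0.00807%, 0 unadjusted). Averaged over ages it called 0 as well (0.00807%, 1 unadjusted, Mmp14). In Chop null against WT it called 0 of the 8 at P5 (0% of all genes), at P28 (0%) and at 4 months (0.00807%), with 0 unadjusted at each age. The interaction of S63del and Chop null, which asks whether the S63del effect depends on Chop, gave 0 calls among the 8 at P5, P28 and 4 months (0% of all genes each), with 1 of the 8 unadjusted at P28, Mmp14 at 0.42 ± 0.19 (limma adjusted p = 0.592). Its Timp1 value was 0.05 ± 0.46 at P5, -0.43 ± 0.46 at P28 and -0.79 ± 0.46 at 4 months.

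Most of the 8 genes changed with age in WT nerves, as did most genes on the array. In WT nerves at P28 against P5, 6 of the 8 rose and 1 fell, with 59.5% of all genes called. Mmp2 read 11.96 and 12.12 at P28, against 10.96 and 10.86 at P5, a rise of 1.13 ± 0.13 (limma adjusted p = 3.59e-06). Timp2 read 12.27 and 12.48, against 11.28 and 11.23, a rise of 1.12 ± 0.11 (adjusted p = 4.28e-07 in limma). Mmp9 rose by 1.12 ± 0.28, Timp4 by 0.90 ± 0.27, Mmp3 by 0.87 ± 0.30 and Timp3 by 0.31 ± 0.11, while Mmp14 fell to 9.29 and 9.40, against 9.81 and 9.70 at P5 (-0.41 ± 0.13, limma adjusted p = 0.0133). Timp1 was 0.63 ± 0.32 lower at P28 without passing (limma adjusted p = 0.102).

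At 4 months against P28 in WT, 4 of the 8 rose and 1 fell (57% of all genes called), and against P5, 6 rose and 1 fell (36.8% called). Timp4 read 5.35 and 5.53 at P5, 6.46 and 6.22 at P28, and 7.93 and 7.45 at 4 months. It was 2.25 ± 0.27 higher at 4 months than at P5 (limma adjusted p = 3.23e-06), which is 4.76-fold. Mmp9 read 7.61 and 7.00 at 4 months and 5.34 and 5.02 at P5, a rise of 2.12 ± 0.28 (limma adjusted p = 9.41e-06). Of the 6 rises against P5, those of Timp2 and Timp3 were lost when the probe sets of a gene were averaged (0.00349 with adjusted p = 0.992 for Timp2, 0.0512 with adjusted p = 0.868 for Timp3), and the 6 Timp2 probe sets ran between -1.91 and 1.48. Mmp14 read 8.78 and 8.66 at 4 months, 1.04 ± 0.13 below P5 (limma adjusted p = 6.82e-06). Mmp2 was 0.25 ± 0.13 lower at 4 months than at P28 (limma adjusted p = 0.119), and -0.40 with its probe sets averaged (adjusted p = 0.0162).

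Several of these age calls were lost without 1 array. Without 1 of the 4 arrays in turn, the 7 calls of P28 against P5 became 3 to 5. Timp3 lost that call without any 1 array (0.26 to 0.35, adjusted p = 0.0571 to 0.144). Mmp14 lost it after quantile normalization (-0.20, adjusted p = 0.163), with the mean of its probe sets (-0.48, adjusted p = 0.0636), without WT P5 replicate 1 (-0.36, adjusted p = 0.0878) and without WT P28 replicate 1 (-0.36, adjusted p = 0.084). Mmp3 lost it after quantile normalization (0.46, adjusted p = 0.168), without either P5 array (0.95 and 0.80, adjusted p = 0.0516 and 0.0949) and without WT P28 replicate 2 (0.76, adjusted p = 0.103). Timp4 lost it without WT P5 replicate 1 (0.81, adjusted p = 0.0579) or WT P28 replicate 1 (0.78, adjusted p = 0.0676).

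At 4 months against P28, Timp2 lost its call without WT P28 replicate 1 (0.25, adjusted p = 0.127). Mmp9 lost it without WT 4-month replicate 1 (0.70, adjusted p = 0.0925) or WT P28 replicate 2 (0.78, adjusted p = 0.0641), and with both probe sets averaged (0.59, adjusted p = 0.107). Against P5, Mmp3 lost its call without WT 4-month replicate 1 (0.33, adjusted p = 0.529) and without either P5 array (0.89 and 0.74, adjusted p = 0.0985 and 0.178).

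**Figure D3:**
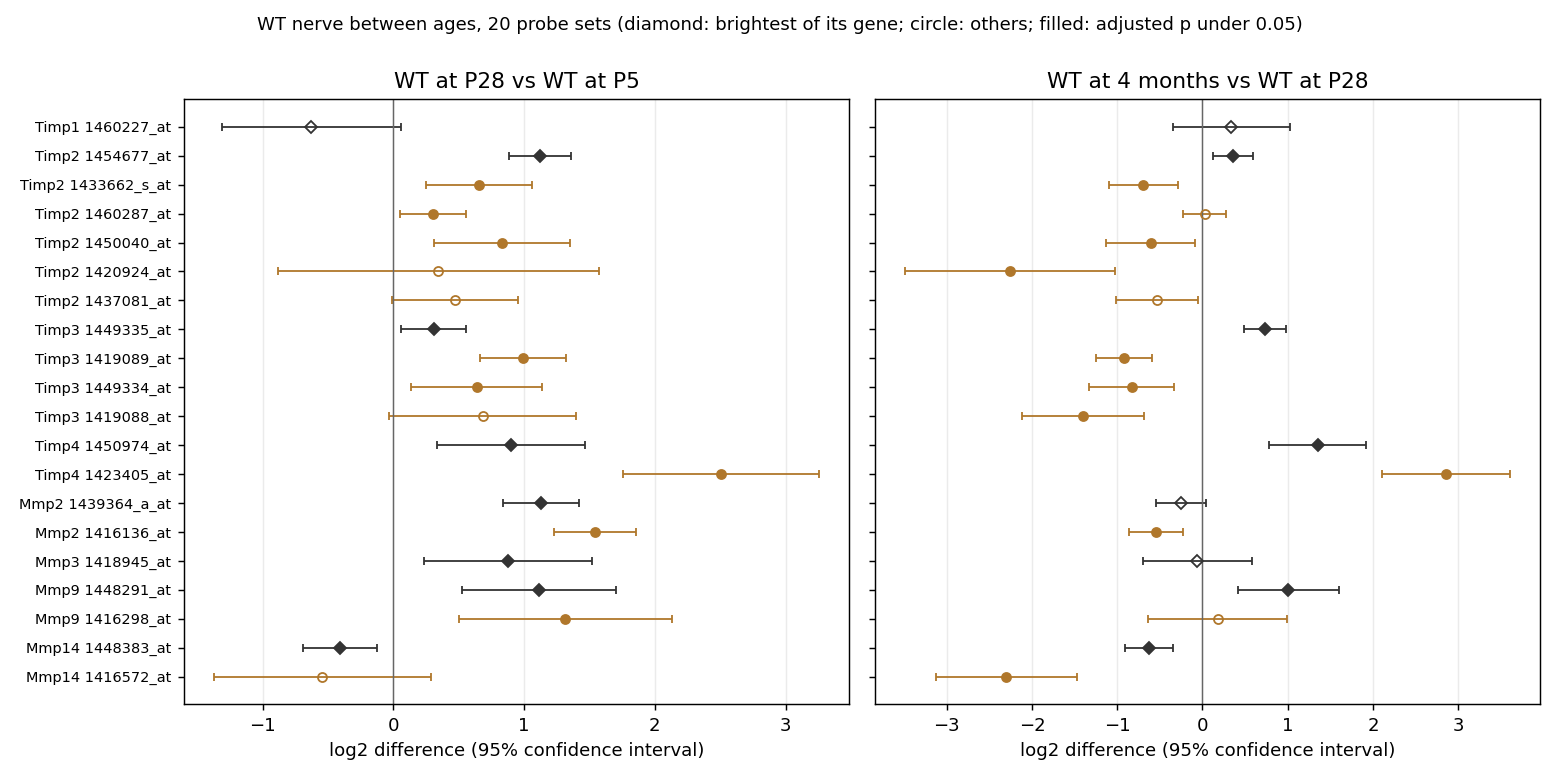
Log2 difference of all 20 probe sets with 95% confidence intervals in WT nerve, for P28 against P5 (left) and 4 months against P28 (right); diamonds are the brightest probe set of a gene, circles the others, and filled symbols passed an adjusted p of 0.05. At 4 months against P28 the brightest probe sets of Timp2 and Timp3 lie above 0, and most of their other probe sets lie below it.

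Probe sets of the same gene went opposite ways between P28 and 4 months. The brightest Timp3 probe set was 0.74 ± 0.12 higher at 4 months in WT (limma adjusted p = 0.000105 over all probe sets). The other 3 were 0.83 to 1.40 lower, each past the threshold. For Timp2, the brightest was 0.36 ± 0.11 higher (adjusted p = 0.0133 in limma), one differed by 0.03, and the other 4 were lower, 3 of them past the threshold. Both Timp4 probe sets rose (1.35 and 2.86), and both of Mmp14 fell (-0.63 and -2.30). Where the probe sets of a gene were averaged, the direction turned to -0.62 for Timp2 (limma adjusted p = 0.0138) and -0.60 for Timp3 (adjusted p = 0.00901).

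A measure of RNA quality is given beside these values. The Affymetrix control for Gapdh has probe sets near both ends of the transcript, and a 3′ signal above the 5′ signal is known to accompany degraded or short RNA. The 3′ minus 5′ gap lay between -0.22 and -0.17 in all 8 arrays at P5 and between -0.05 and 0.39 at P28. At 4 months it was 0.36 and 0.55 in S63del/Chop null, 1.32 and 1.05 in S63del, 0.03 and -0.04 in Chop null, and 2.12 and 0.08 in WT. The gap is therefore largest in WT replicate 1 and in both S63del arrays at 4 months. A second control, for 18S ribosomal RNA, separated the genotypes at P28. Its 3′ signal was 6.0 and 5.9 in S63del/Chop null and 6.2 and 6.7 in S63del. In Chop null the same signal was 9.7 and 10.6, and in WT 9.6 and 9.4. The part of this difference in the P28 genotype results was not tested.

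Among the arrays at 4 months, some dimmer probe sets were lowest where the control gap was largest. The fifth of the Timp2 probe sets by brightness read 8.80 and 7.87 in S63del/Chop null nerves at 4 months, 6.65 and 7.11 in S63del, 9.13 and 9.62 in Chop null, and 6.14 and 8.95 in WT. The dimmer Mmp14 probe set read 6.66 and 6.51 in S63del/Chop null, 5.49 and 5.93 in S63del, 7.38 and 7.40 in Chop null, and 4.92 and 6.96 in WT. The dimmest Timp3 probe set was lowest in WT replicate 1 as well, at 7.24 against 8.52 in replicate 2. The brightest probe sets of these genes varied far less between the same arrays, with 12.73 and 12.74 for Timp2 in WT. In some arrays with a small Gapdh control gap the Timp3 probe sets went opposite ways too. In Chop null the brightest minus the second brightest Timp3 probe set was 1.02 and 1.00 at 4 months, against -0.50 and -0.32 at P28, with control gaps of 0.03 and -0.04 at 4 months and 0.02 and 0.34 at P28. In WT replicate 2 at 4 months that difference was 1.17. The 3′ minus 5′ gap of the 18S control was not small in the Chop null arrays, at 2.48 and 2.04 at 4 months. It lay between 2.04 and 2.69 in all 8 arrays of that age. At P28 the 18S gap was 0.77 and 1.09 in Chop null. The gap of a further control, beta-actin, was 0.82 and 0.74 in Chop null at 4 months, and 0.59 and 1.12 at P28. In WT at 4 months the beta-actin gap was 1.825 and 0.837. The part of RNA quality in the 4-month results was not tested.

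**Figure D4:**
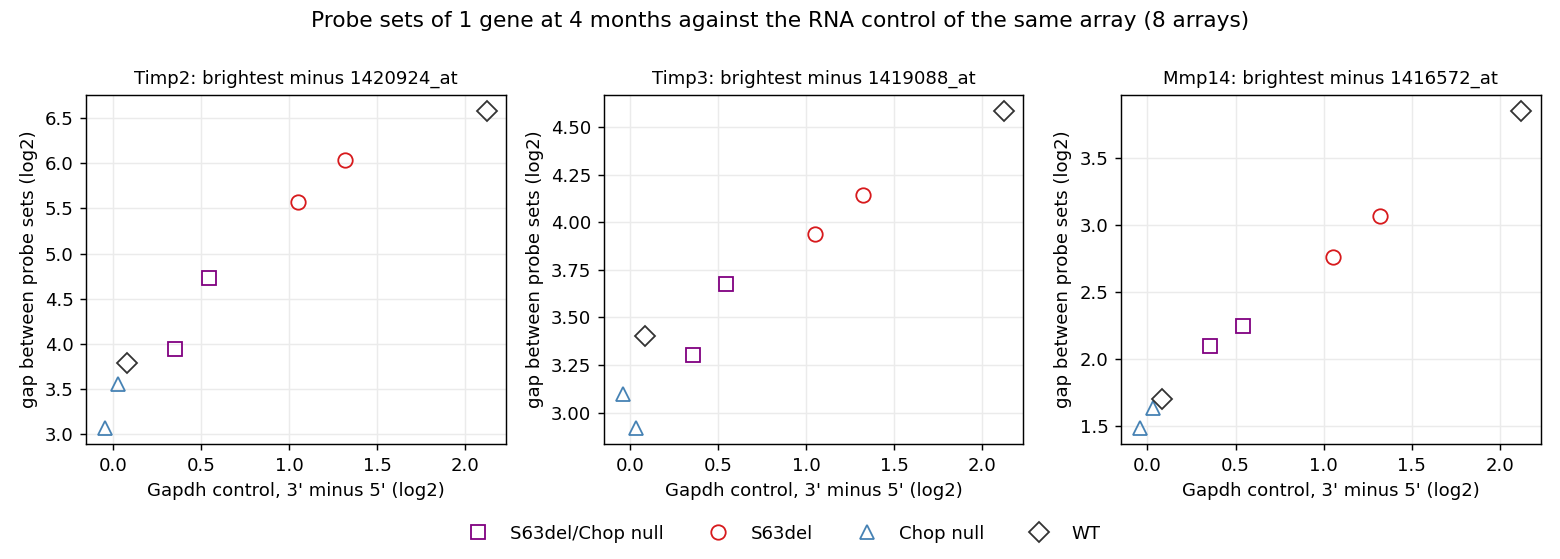
Gap between the brightest and another probe set of Timp2, Timp3 and Mmp14 (log2, vertical) against the 3′ minus 5′ gap of the Gapdh control (log2, horizontal) in the 8 arrays at 4 months; the probe sets were chosen after their values were seen. WT replicate 1, with a control gap of 2.12, has the widest probe set gap in each panel, and the Chop null arrays the narrowest.

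Related genes were read from lists. These were written with earlier results of these data known. Of 14 measured other MMPs, 1 rose and 0 fell in S63del against WT at P5: Mmp19, which degrades basement membrane components, by 0.72 ± 0.14 (limma adjusted p = 0.00721). Mmp19 also rose in S63del/Chop null against Chop null at P5 (0.69 ± 0.14, limma adjusted p = 0.0124) and at P28 (0.54 ± 0.14, limma adjusted p = 0.0175), where Mmp24 fell (-0.59 ± 0.15) and 17.8% of all genes were called. The median of the 14 was -0.07 at P5 in S63del against WT, beside -0.02 over all genes. No other MMP passed at P28 in S63del against WT.

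Of 17 measured ADAM and ADAMTS proteases, 2 rose and 1 fell in S63del against WT at P28. Adam17, the sheddase of TNF and the EGF family that Timp3 inhibits, rose by 0.67 ± 0.15 (limma adjusted p = 0.0154), and Adam23, a non-catalytic member, by 0.99 ± 0.25 (adjusted p = 0.033). The aggrecanase Adamts5 fell by 0.68 ± 0.12 (limma adjusted p = 0.00469). Adamts5 also fell (-0.61 ± 0.12) and Adam17 rose (0.51 ± 0.15) in S63del/Chop null against Chop null, where 3 of the 17 rose and 2 fell and 17.8% of all genes were called. In the plasminogen system, which activates MMPs, and the proprotein convertases, 0 of 10 passed in limma at P5 or P28 in S63del against WT, and averaged over ages the convertase Pcsk6 fell by 1.02 ± 0.23 (limma adjusted p = 0.0131).

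Among 14 measured other inhibitors and binding partners, 3 rose and 1 fell in S63del against WT at P28. Cd44, a hyaluronan receptor that docks Mmp9 and Mmp14 at the cell surface, rose by 1.32 ± 0.20 (limma adjusted p = 0.00113), Tfpi2 by 0.90 ± 0.23 and Thbs2 by 0.53 ± 0.14. A2m, a plasma-type inhibitor that traps proteases of every class, fell by 1.33 ± 0.18 (limma adjusted p = 0.00041). In S63del/Chop null against Chop null A2m fell by 1.38 ± 0.18 and Cd44 rose by 1.53 ± 0.20, with 3 of the 14 up and 2 down, beside 17.8% of all genes called. At P5 Cd44 rose (0.85 ± 0.20) and Spock2 fell (-0.50 ± 0.12) in S63del against WT. Among 13 basement membrane and dystroglycan genes, the substrates of these enzymes, 0 passed at P5 or P28 in S63del against WT, and averaged over ages Col4a1 fell by 0.36 ± 0.08 (limma adjusted p = 0.00729).

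AP-1, ETS and STAT3 factors and cytokines of the oncostatin M type are known to induce Timp1. Of 21 measured AP-1, ETS, STAT3 and cytokine genes, 3 rose and 0 fell in S63del against WT at P5, and 4 rose and 0 fell at P28. At P28 these were Fos by 1.33 ± 0.21 (limma adjusted p = 0.0014), Socs3, a STAT3 target, by 1.31 ± 0.29, Jun by 0.80 ± 0.20 and Osmr, the oncostatin M receptor, by 0.75 ± 0.17. At P5 they were Fos (1.09 ± 0.21), Fosl1 (1.06 ± 0.21) and Osmr (0.93 ± 0.17). In S63del/Chop null against Chop null at P28 7 rose and 1 fell, where 17.8% of all genes were called, with Fos at 1.62 ± 0.21 and Jun at 1.36 ± 0.20. The median of the 21 was 0.07 at P28 in S63del against WT, beside 0.01 over all genes.

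Markers of several cell types differed between the same groups as Timp1. Of 9 measured markers of immature and repair Schwann cells, 2 rose at P5 and 5 at P28 in S63del against WT, and their mean level was 7.49 to 7.62 in S63del arrays and 6.93 to 6.99 in WT arrays at P5, and 7.17 to 7.22 in S63del arrays and 6.16 to 6.22 in WT arrays at P28. Of 10 macrophage markers, 0 passed at P5 and 4 rose at P28, with mean levels of 9.02 to 9.03 in S63del and 8.89 to 9.04 in WT at P5, and 9.56 to 9.64 in S63del and 9.08 to 9.24 in WT at P28. Of 7 mast cell markers, 2 rose at P28 (mean levels 7.98 to 8.10 in S63del and 7.32 to 7.41 in WT). Other lists had lower mean levels in S63del at P5 without overlap. Fibroblast and perineurium markers were at 10.88 to 11.02 in S63del and 11.25 to 11.31 in WT (2 of 10 fell), endothelium and pericyte markers at 8.36 to 8.51 in S63del and 8.76 to 8.83 in WT (1 of 11 fell), and myelinating Schwann cell markers at 12.41 to 12.46 in S63del and 12.78 to 12.79 in WT (1 of 4 fell). Neutrophil markers were lower as well, at 4.95 to 5.43 in S63del and 5.58 to 5.66 in WT. Erythroid markers were at 6.4 to 6.8 in S63del and 7.0 to 7.2 in WT. Axon and neuron markers were higher in S63del at P5, at 5.30 to 5.32 against 4.94 to 5.12 in WT. At P28 they were lower in S63del, at 4.828 to 4.899 against 5.115 to 5.144 in WT. Myelinating Schwann cell markers were higher in S63del at P28 (12.527 to 12.542 against 12.395 to 12.404 in WT). Lower in S63del at P28 were endothelium and pericyte markers (8.76 to 8.86 against 9.18 to 9.25) and fibroblast and perineurium markers (11.78 to 11.86 against 11.89 to 12.01). Erythroid markers overlapped at P28. The part of these cells in the Timp1 result was not tested.

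Neutrophil markers, given because neutrophils carry Mmp9, lay on average under the 40th percentile of gene means, each of the 9, although S100a8 reached 8.40 and S100a9 8.03 in single arrays. Of 9 measured, 0 passed in S63del against WT at P28 in limma, with mean levels of 5.30 to 5.55 in S63del and 5.64 to 5.89 in WT. At 4 months against P5 in WT 4 of them fell and 0 rose, while Mmp9 rose. In that comparison 21.3% of all genes rose and 15.5% fell. Adipocyte markers rose with age in WT, 5 of 5 at 4 months against P5 with a median difference of 3.91, beside the rises of Timp4 and Mmp9. In S63del against WT at P28 0 of these 5 passed in limma (mean levels 10.4 to 10.7 in S63del and 10.8 to 11.0 in WT). Skeletal muscle markers varied widely within some groups, with 7.89 and 11.02 in the S63del arrays at P28. Both lay below the 11.3 and 11.9 of the WT arrays. In WT the mean level of the muscle markers was 9.81 at P5, 11.6 at P28 and 6.97 at 4 months. The part of fat and muscle in the Timp4 and Mmp9 results was not tested.

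As a description, the genes whose pattern was most like that of Timp1 over the 24 arrays, after the mean of each age was subtracted, were Anxa1 (r = 0.972), Cebpd (0.955), Casp1 (0.955), Nrcam (0.952) and S100a4 (0.952). For Timp3 they were Srxn1 (0.927), Atf3 (0.925), Lgals3 (0.922), Nol3 (0.921) and Mvp (0.917). For Mmp2 they were Slc22a23 (0.910), Tenm3 (0.904), Pou3f1 (0.904), Rap1gap (0.901) and Sox4 (0.896). Arrays of a group share genotype and age, so these values describe a common course over the same groups. Among the 8 genes, Timp1 ran with Timp3 (0.820) and Mmp2 (0.693), and Mmp2 ran against Mmp9 (-0.778) and with Mmp14 (0.671).
The remaining members had looser neighbours. Those of Timp4 began with Fhl1 (0.859), of Mmp9 with Irs3 (0.881), of Mmp3 with Adtrp (0.875), of Mmp14 with Rrbp1 (0.793) and of Timp2 with Jund (0.790). Over the arrays as deposited, with age left in, the gene most like Timp1 was Creld2 (r = 0.921).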

How the data were processed

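The authors deposited log2 expression values of 22690 probe sets for 24 Affymetrix arrays of total RNA from sciatic nerve. How the values were normalized, with which software and whether over all ages together, the sources used here do not say. Precision is limited by the number of arrays. Probe sets were named through the platform annotation: 20380 had 1 gene symbol, 691 had several and 1555 had none. The brightest probe set stood for a gene. limma 3.58.1 (R 4.3.3) fitted 12 group means over all arrays, with Benjamini-Hochberg adjustment over 12393 genes and a threshold of 0.05; the fit was tested on simulated data. Groups came from the sample titles. The labels call the 2 arrays of a group biological replicates, but do not say that they come from separate animals, so p-values measure the spread between these samples. Genes outside the 8 were named from lists of related genes, up to 4 per list and comparison among those that passed, by adjusted p, and by likeness, up to 5 per member. The members and lists were chosen with earlier results of these data known. Alternatives were array weights, quantile normalization, averaged probe sets, each probe set on its own, genes under the 40th percentile left out, a robust fit with an intensity trend, a replicate block, the 8 arrays of an age alone, and leaving out arrays. Some genes are not reported here.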

Additional observations from a re-analysis of the deposited data

Results flagged for a closer look

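In a pair of cases, read on the brightest probe set, every array of a group moved one way at one age and the opposite way at another, and the difference between ages was not tested. Timp3 in S63del/Chop null minus S63del was 0.1035 at P28 and -0.1832 at 4 months. The other 3 Timp3 probe sets gave 0.0059, 0.1904 and 0.3687 at 4 months, so that none of them was lower there. Mmp14 in Chop null minus WT was -0.1209 at P5 and 0.2312 at 4 months. The other Mmp14 probe set overlapped between these groups at P5 (-0.0220) and gave 1.4499 at 4 months. WT at 4 months includes replicate 1, with the Gapdh control gap of 2.12. None of these differences passed in limma.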

How the results depend on the processing

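Of 32 member results past the threshold, 13 stayed past it under every alternative run, 18 lost the call under at least 1, and 2 reversed under at least 1, of which Timp2 at 4 months against P28 is counted in both. Of 176 not past it, 6 gained a call under at least 1. With the mean of all probe sets, Timp2 and Timp3 in WT at 4 months against P28 turned to -0.618 and -0.604, and 1 of the 8 genes was called at P5 in S63del/Chop null against Chop null and 1 in S63del/Chop null against WT. Without 1 array, these P5 counts were 0 and 0, that of S63del against WT was 0 to 1, that of S63del against WT at P28 1 to 2, that of S63del/Chop null against Chop null at P28 1 to 4, and those averaged over ages in S63del against WT 2 to 3. At P28, S63del against WT had 2 calls with quantile normalization, 2 with the intensity trend and 2 without both arrays that stand apart (replicate 1 of WT at 4 months and replicate 2 of Chop null at P28). S63del/Chop null against Chop null had 0 with array weights, 1 without both arrays and 1 in the 8 arrays of the age alone, and S63del/Chop null against WT had 2 without both arrays. With genes under the 40th percentile left out, WT had 4 calls for P28 against P5, 3 for 4 months against P28 and 4 for 4 months against P5; without 1 array these were 3 to 5, 4 to 5 and 6 to 7. The filter at the 40th percentile took Timp4, Mmp3 and Mmp9 out of the fit, so its lower counts lack these genes. No gene that stayed in lost its WT age call under that filter. With a replicate block within each age every count was as without it (2 for S63del against WT at P5, 3 for S63del/Chop null against Chop null at P28). Deviations of same-numbered arrays from their group means correlated at -0.477 to 0.349 between groups of an age. The labels name no pairing, and with 2 arrays a group this check cannot tell whether samples were paired. With 2 arrays a group, differences smaller than the intervals given were not detectable, and dim genes (Timp4, Mmp3, Mmp9) are the least precise.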

Other observations

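Several related genes changed with age in WT nerve. A2m, the broad protease trap, was 3.91 ± 0.18 higher at 4 months than at P5 (limma adjusted p = 3.51e-11), and Spock2, a proteoglycan that binds MMPs, was 2.34 ± 0.12 higher (limma adjusted p = 1.58e-10). The docking receptor Cd44 fell by 2.14 ± 0.20 over the same span (limma adjusted p = 1.56e-07). Osmr rose by 2.83 ± 0.17 (limma adjusted p = 1.34e-09), and Reck, a membrane-anchored MMP inhibitor, was 1.09 ± 0.12 higher at 4 months than at P28 (limma adjusted p = 3.45e-06). Of the other MMPs, Mmp16 fell by 1.34 ± 0.22 and Mmp8 by 0.92 ± 0.23 at 4 months against P5. WT at 4 months includes replicate 1, with the Gapdh control gap of 2.12, and each gene was read from its brightest probe set. The array spread differs between ages as given above. The part of the spread and of RNA quality in these values was not tested.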
